A study of Mus musculus with 19 samples.

Results

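The genes described here are 9 transcription factors of the IRF and STAT families, *Irf1*, *Irf3*, *Irf5*, *Irf7*, *Irf9*, *Stat2*, *Stat3*, *Stat5a* and *Stat6*. They were chosen by gene symbol, and all 9 were found among the 27299 genes of the table. RNA-seq had been performed on microglia, the resident macrophages of the neural retina, with 6 samples taken 3 days after a laser injury (CNV d3) and 6 from unlasered control mice. The laser opens the barrier under the retina, and new vessels then grow in from the choroid (choroidal neovascularization, CNV). The labels name C57BL/6J mice of 8 weeks for both groups, and the methods name mice with the *Cx3cr1* GFP/+ reporter, in which GFP replaces 1 copy of the fractalkine receptor gene. In the CNV d3 group 6 burns had been set per eye. Cells of both groups had been sorted for CD45 (low CD45 in the methods), CD11b and CX3CR1 and against Ly6C and Ly6G, which mark monocytes and neutrophils. Nothing in the labels says how many animals a sample holds, so p-values measure the spread between these samples.

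IRF proteins (interferon regulatory factors) and STAT proteins (signal transducers and activators of transcription) carry signals from pattern receptors and cytokine receptors to the nucleus. IRF3, IRF5 and IRF7 are activated by phosphorylation after the sensing of foreign or misplaced nucleic acids and switch on type I interferon genes. Interferon receptors then signal through Janus kinases to STAT2, which binds IRF9 within the factor ISGF3 to turn on interferon-stimulated genes by a sequence called ISRE. STAT3, STAT5A and STAT6 respond mainly to IL-6 type cytokines, to GM-CSF and IL-3 type cytokines, and to IL-4 and IL-13. Much of this control acts on the proteins, which were not measured, while several of the genes, *Irf7*, *Stat2* and *Irf9* among them, are themselves interferon-stimulated.

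The 9 genes lie on 5 chromosomes of the mouse genome (GRCm38, Gencode release M21). *Irf7* is at chr7:141262706-141266481 on the minus strand and *Irf3* at chr7:44997648-45002848 on the plus strand. *Stat6* (chr10:127642986-127660957) and *Stat2* (chr10:128270559-128292849) are both on the plus strand of chromosome 10. *Stat5a* (chr11:100859351-100885169, plus strand) and *Stat3* (chr11:100885098-100939540, minus strand) end against each other and share 72 exonic bases. *Irf1* is at chr11:53770014-53778374, *Irf5* at chr6:29526625-29541871 and *Irf9* at chr14:55603571-55610030, all on the plus strand. Reads that fall on exons of more than 1 gene are dropped by the default counting used here. The shared stretch was largest for *Irf5*, of which 14.1% of the exonic bases also belong to *Tnpo3*, and at most 3.40% for the other 8 genes.

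The sequence before the start of a gene shows whether the letters read by these factors stand there. Below are the bases before the RefSeq start of *Stat2* and *Irf1*, the 2 of the 9 genes with a match, and of *Irf7*, the gene that rose most. The letters searched on both strands were GAAANNGAAA for the ISRE and TTCNNNGAA for the STAT site known as GAS. Capitals mark a match, each sequence is written 5′ to 3′ on the strand of the gene, and all were taken from RefSeq (GRCm38.p6).
Stat2, chr10:128270248-128270497, plus strand, ISRE in capitals: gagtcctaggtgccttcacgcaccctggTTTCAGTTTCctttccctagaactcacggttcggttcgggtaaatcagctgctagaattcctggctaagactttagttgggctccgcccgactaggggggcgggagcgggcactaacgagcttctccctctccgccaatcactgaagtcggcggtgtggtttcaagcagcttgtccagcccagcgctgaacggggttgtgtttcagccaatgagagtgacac
Irf1, chr11:53769764-53770013, plus strand, GAS in capitals: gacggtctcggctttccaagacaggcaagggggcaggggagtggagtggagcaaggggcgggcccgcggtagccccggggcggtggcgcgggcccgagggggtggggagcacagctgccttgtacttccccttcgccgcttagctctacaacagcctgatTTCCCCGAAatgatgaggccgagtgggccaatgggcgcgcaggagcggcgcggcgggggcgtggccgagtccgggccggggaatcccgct
Irf7, chr7:141266482-141266674, minus strand, no match: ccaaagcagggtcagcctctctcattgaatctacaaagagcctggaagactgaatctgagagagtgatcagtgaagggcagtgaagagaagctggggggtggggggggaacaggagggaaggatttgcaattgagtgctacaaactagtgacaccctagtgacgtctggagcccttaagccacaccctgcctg
In the *Stat2* stretch the ISRE letters TTTCAGTTTC lie from position -222 to -213 counted from the start. The GAS letters TTCCCCGAA of *Irf1* lie from position -90 to -82. The *Irf7* stretch is 193 bases long because the 57 bases nearest the RefSeq start belong to the first exon in Gencode M21, and the whole window of 250 bases was searched. None of the other 6 genes, *Irf3*, *Irf5*, *Irf9*, *Stat3*, *Stat5a* and *Stat6*, had either motif in 250 bases. For *Irf9* and *Stat5a* the windows searched lie inside the Gencode M21 gene model, so the bases before that model were not searched. Of all 32851 promoters of this length 2.98% held the ISRE letters and 7.02% the GAS letters. By gene, the ISRE letters stood before 3.46% of all genes, before 11 of the 22 ISGF3 target genes with a promoter in the table and before 8 of the 14 IRF1 target genes. A match is a description of letters, and a missing match covers this window only.

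The values are normalized counts, which are reads per gene divided by a size factor for the depth of the sample. Between 23532260 and 29523018 reads lay on genes in the CNV d3 samples and between 10963178 and 22335233 in the control samples, so that every CNV d3 sample was deeper. The microglia genes *Tmem119* and *P2ry12* were high in all 12 samples, with at least 38810 and 44022 normalized counts. Both were nevertheless among the 7 of 11 microglia markers that fell in CNV d3, by 1.06 and 1.65 on the log2 scale (limma, adjusted p = 0.000136 and 1.01e-05). The summed level of 14 monocyte markers was between 1146 and 2482 in control and between 6970 and 55296 in CNV d3, and 8 of the 14 rose. Most of the sum in CNV d3 was *Fn1*. The monocyte chemokine receptor gene *Ccr2* rose from a median of 8.13 to one of 594 (adjusted p = 0.00455), *Plac8* from 30.2 to 512 (adjusted p = 0.0115), and *Ly6c2* from 0 in all control samples to between 1.73 and 25.1 (adjusted p = 0.00134). The sum of 8 Mueller glia markers also moved, from 19659 to 41473 in control to 59671 to 102376 in CNV d3, most of it *Apoe*, which macrophages also express. Of the 8 markers 3 rose, which were *Apoe*, *Vim* and *Dkk3*. *Vim* rose by 3.79 on the log2 scale, from a median of 185 to one of 2552 (limma, adjusted p = 4.09e-05). *Dkk3* rose by 3.81, from 0 to 9.13 in control to 10.8 to 106 (adjusted p = 0.0108). *Slc1a3* fell by 0.67 on the log2 scale (adjusted p = 0.0208), and *Glul* did not pass (log2 fold change of -0.27). The 7 markers of T, NK and B cells found did not sum to more than 38.5 in any sample. All 12 cell cycle markers rose, from summed levels of 119 to 1616 in control to 11313 to 27617 in CNV d3. Beside these counts of markers, 8.29% of all genes rose and 4.57% fell in the same test. In bulk samples more cells of a type and more RNA per cell cannot be told apart, and the part of other cells in the values below was not tested.

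At CNV d3 the transcripts of *Irf7*, *Stat2* and *Stat3* were higher than in control microglia and that of *Irf5* was lower. *Irf1*, *Irf3*, *Irf9*, *Stat5a* and *Stat6* did not pass the test. All 27299 genes were tested with limma on log2(normalized counts + 1), p-values were adjusted by Benjamini-Hochberg with a threshold of 0.05, and all fold changes below are on this scale. Of the 9 genes 3 passed upwards, beside 8.29% of all genes tested, and 1 passed downwards, beside 4.57%. Among the 10756 genes with a mean of at least 50 normalized counts, as all 9 had, the shares were 14.9% and 10.7%. With an absolute log2 fold change above 1.5 in addition, as DEG are defined in the study, only *Irf7* remained, beside 3.91% of all genes upwards and 1.07% downwards. The median log2 fold change of the 9 genes was 0.02, beside 0.15 for all genes.

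**Figure D1:**
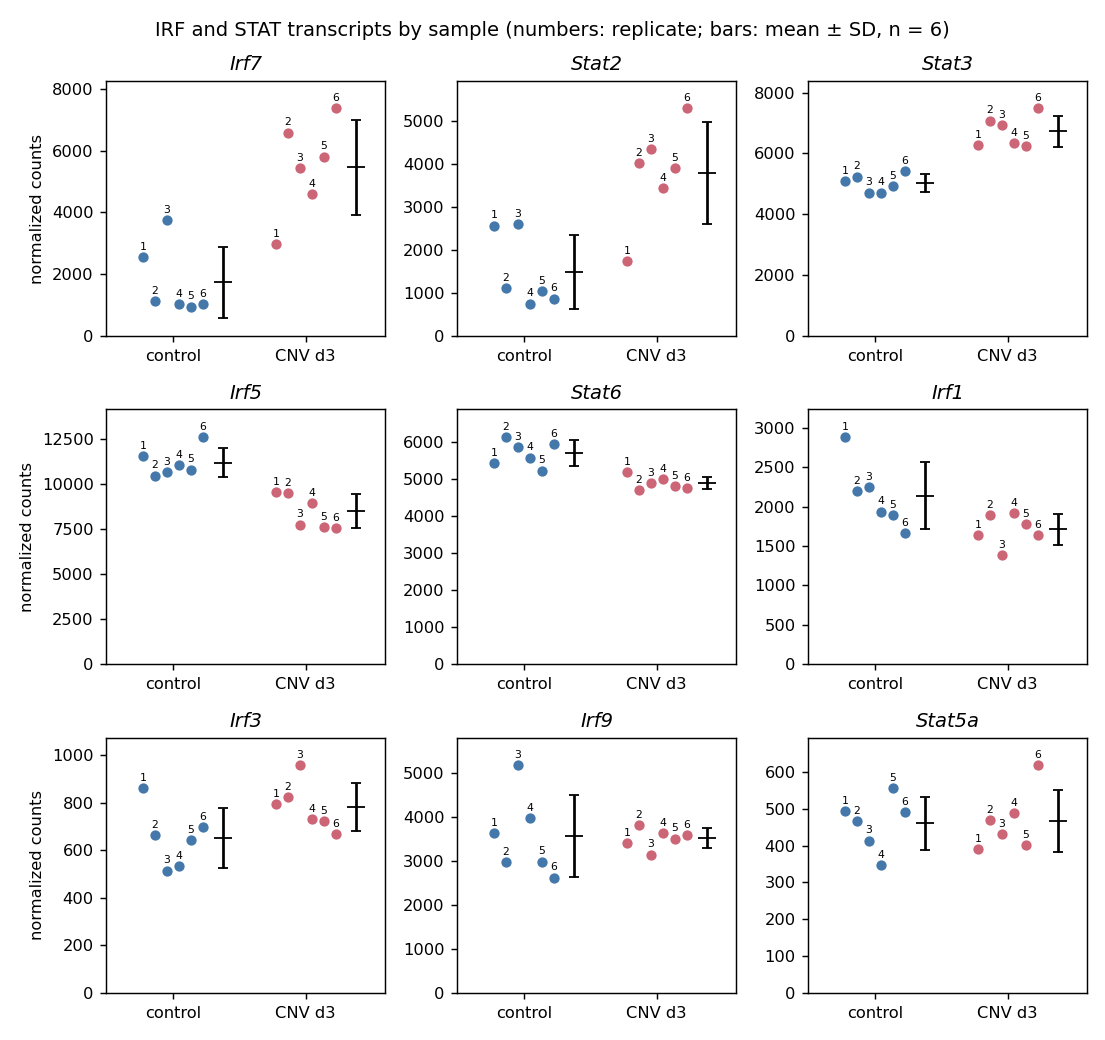
Normalized counts (y axis, from 0) of the 9 transcripts in each control (blue) and CNV d3 (red) sample, with the replicate number at each point and mean ± SD (n = 6) as black bars. Control replicates 1 and 3 stand above the other control samples for *Irf7* and *Stat2*, and the groups do not overlap for *Stat3*, *Irf5* and *Stat6*.

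IRF7 is the factor that amplifies type I interferon production, and it showed the largest change of the 9. The 6 control samples had 2543, 1120, 3749, 1032, 951 and 1033 normalized counts of *Irf7* in replicates 1 to 6. The CNV d3 samples had 2965, 6589, 5425, 4592, 5813 and 7373. In 5 of 6 CNV d3 samples *Irf7* was above every control sample, and CNV d3 replicate 1 lay between control replicates 1 and 3. The mean was 1738 ± 1157 in control and 5459 ± 1552 in CNV d3 (SD, n = 6 each), a log2 fold change of 1.82 ± 0.33 (SE, limma, adjusted p = 0.00193). It passed without any 1 of the 12 samples, with log2 fold changes from 1.69 to 2.08.

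STAT2 is the subunit of ISGF3 that activates transcription. *Stat2* reached 2564, 1111, 2596, 751, 1041 and 868 normalized counts in control replicates 1 to 6. In CNV d3 it had 1732, 4021, 4328, 3426, 3895 and 5282. The order of the samples resembled that of *Irf7*, with control replicates 1 and 3 highest in their group and CNV d3 replicate 1 lowest in its own. The mean rose from 1488 ± 855 to 3781 ± 1179 (SD, n = 6 each), with a log2 fold change of 1.45 ± 0.33 (SE, limma, adjusted p = 0.00881). Without CNV d3 replicate 6 the log2 fold change was 1.34 and the adjusted p 0.053, so that this call was lost, and it held without any other single sample.

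Control replicates 1 and 3 therefore bear on both genes. In them *Irf7* was at 2543 and 3749, where the other 4 control samples lay between 951 and 1120. *Stat2* was at 2564 and 2596, where the others lay between 751 and 1111. No such step was seen for *Stat3*, *Stat6* or *Irf5*, whose values in these 2 samples lay within or next to the range of the other control samples. Without both of them, a choice made after the data were seen, the log2 fold change was 2.34 for *Irf7* (adjusted p = 0.000493) and 1.94 for *Stat2* (adjusted p = 0.00253). For *Irf1* the same 2 samples were also the highest controls, at 2882 and 2247 against 1660 to 2196 in the others. Without both, its log2 fold change was -0.17 and that of *Irf9* 0.18, and neither passed (limma, adjusted p = 0.396 and 0.364).

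The same 2 control samples were high for the genes that ISGF3 acts on. Summed over 30 ISGF3 target genes, control replicate 1 had 63080 and control replicate 3 had 70164 normalized counts, where the other 4 control samples had 25878 to 28747. The CNV d3 samples had 47692 to 98449, with the lowest value in replicate 1. In 24 of the 30 genes the highest 2 of the 6 control values were those of replicates 1 and 3, beside 7.90% of all genes with a mean of at least 50. *Ifnb1*, which encodes interferon beta and was looked at after its values were seen, had 40.8 normalized counts in control replicate 1 and 446 in replicate 3. It had 0 in the other 4 control samples and 0 to 23.6 in the CNV d3 samples. A high value in a single control sample was also seen for another cytokine gene, *Il12b*, likewise looked at after its values were seen. *Il12b* had 443 in control replicate 5, which was not high for the target genes, 0 in every other control sample and 13.3 to 170 in CNV d3. Whether either gene bears on the target genes was not tested.

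**Figure D2:**
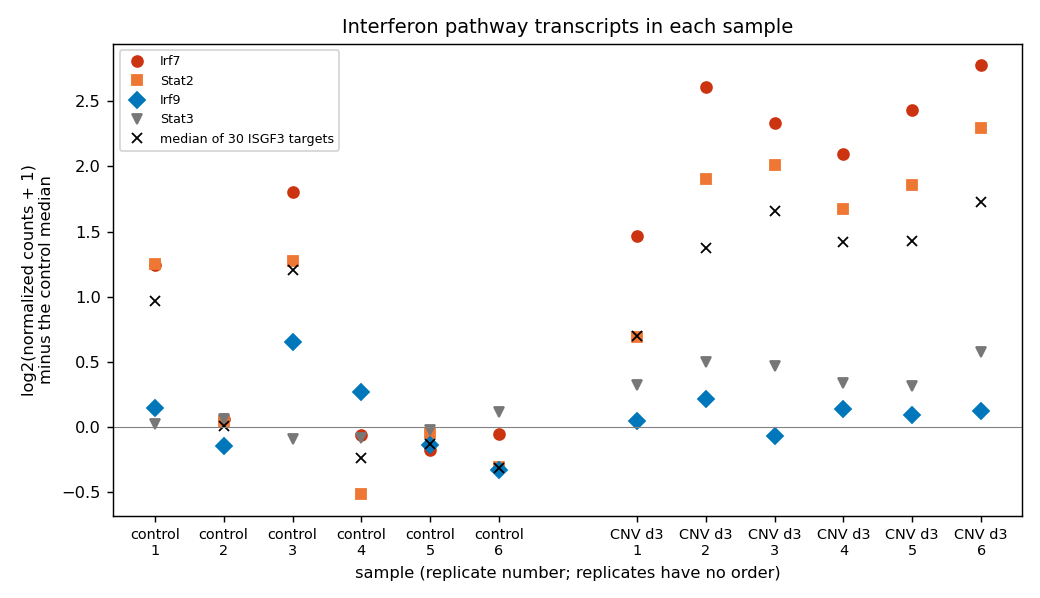
Each sample's log2(normalized counts + 1) minus the control median (y axis) for *Irf7*, *Stat2*, *Irf9* and *Stat3*, with the median over 30 ISGF3 target genes as crosses. The target genes stood at 0.97 and 1.21 in control replicates 1 and 3, between -0.31 and 0.00 in the other controls and between 0.70 and 1.73 in CNV d3.

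IRF9 gives ISGF3 its DNA binding, but its transcript had no detectable difference between groups. *Irf9* had 3629, 2965, 5169, 3963, 2982 and 2619 normalized counts in control and 3396, 3813, 3139, 3623, 3503 and 3577 in CNV d3. All CNV d3 values lay inside the control range, and control replicate 3 was the highest of the 12. The log2 fold change was 0.02 ± 0.14 (SE, limma, adjusted p = 0.946). Within samples, the log2 ratio of *Stat2* to *Irf9* went from -1.40 ± 0.64 in control to 0.03 ± 0.55 in CNV d3 (SD, n = 6 each). This difference of 1.44 was tested by a two-sided exact permutation test over all labelings of the 12 samples (p = 0.00433, adjusted p = 0.00866 over the 4 ratios tested). In this unpaired test the *Stat2* and *Irf9* transcripts thus did not change by the same factor. The paired version given in the last section had an exact sign-flip p above 0.05.

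IRF3 is the other main inducer of interferon genes and is generally present in unstimulated cells. *Irf3* was at 862, 663, 515, 534, 642 and 699 normalized counts in control and at 794, 823, 958, 732, 722 and 667 in CNV d3. Only CNV d3 replicate 3 was above all control values. The log2 fold change of 0.27 ± 0.15 did not pass (SE, limma, adjusted p = 0.290). The log2 ratio of *Irf7* to *Irf3* was 1.21 ± 0.89 in control and 2.75 ± 0.54 in CNV d3 (SD, n = 6 each). The difference of 1.54 passed the exact permutation test (two-sided p = 0.0108, adjusted p = 0.0144 over the 4 ratios).

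IRF5 drives inflammatory cytokine genes downstream of Toll-like receptors. *Irf5* fell, from 11520, 10447, 10640, 11032, 10783 and 12595 normalized counts in control to 9541, 9487, 7743, 8927, 7604 and 7564 in CNV d3. All CNV d3 values were below all control values. The log2 fold change was -0.40 ± 0.08 (SE, limma, adjusted p = 0.00478). It passed without any 1 of the 12 samples but not in limma without the trend of the variance, where the adjusted p was 0.0593.

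IRF1 turns on genes of antigen presentation and host defence after interferon gamma. *Irf1* had 2882, 2196, 2247, 1935, 1888 and 1660 normalized counts in control and 1642, 1890, 1387, 1917, 1780 and 1640 in CNV d3. Control replicate 1 was the highest, and 3 of the CNV d3 samples lay below all control samples. The log2 fold change of -0.31 ± 0.13 did not pass the test (SE, limma, adjusted p = 0.160).

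STAT3 carries signals of IL-6 and IL-10 type cytokines. *Stat3* had 5089, 5239, 4711, 4716, 4938 and 5429 normalized counts in control and 6280, 7079, 6937, 6333, 6234 and 7483 in CNV d3. Every CNV d3 sample was above every control sample. *Stat3* rose by a log2 fold change of 0.42 ± 0.08 (SE, limma, adjusted p = 0.00175), and the call held without any 1 of the 12 samples. The change was small and so was the spread, since only 0.995% of the 9145 genes with a mean of at least 100 in each group varied less among the control samples. This ranking was not matched for expression level.

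STAT6 is the factor of IL-4 and IL-13 responses. *Stat6* had 5420, 6140, 5856, 5581, 5229 and 5950 normalized counts in control and 5182, 4710, 4899, 4997, 4811 and 4767 in CNV d3. The groups did not overlap, yet the log2 fold change of -0.22 ± 0.07 missed the threshold with all samples and all genes (SE, limma, adjusted p = 0.0526). It passed in 19 of 26 alternatives, among them all 12 in which 1 sample was left out (limma, adjusted p from 0.0156 to 0.0455). It did not pass in edgeR (adjusted p = 0.122), nor there without control replicates 1 and 3 (0.150). In limma it also missed without the trend of the variance (adjusted p = 0.247) and with a replicate block (0.147). The same held with TMM scaling (0.0793), with thinning to the shallowest sample (0.0587) and with a pseudocount of 0.5 (0.056). The log2 ratio of *Stat3* to *Stat6* was -0.18 ± 0.09 in control and 0.46 ± 0.15 in CNV d3 (SD, n = 6 each). The difference of 0.64 had the smallest p that 6 against 6 samples allow (two-sided exact permutation test, p = 0.00216, adjusted p = 0.00866 over the 4 ratios). Of the 9 genes, 1 had all CNV d3 values above all control values, beside 4.64% of all genes, and 2 had them all below, beside 2.83%.

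STAT5A serves receptors for GM-CSF, IL-3 and IL-2. *Stat5a* was the lowest of the 9 transcripts, with 493, 467, 413, 346, 555 and 491 normalized counts in control and 390, 470, 432, 488, 400 and 618 in CNV d3. The groups overlapped almost completely, with a log2 fold change of 0.02 ± 0.17 (SE, limma, adjusted p = 0.955). *Stat5b*, its close paralog, had 1180 ± 231 in control and 1469 ± 58.1 in CNV d3 (SD, n = 6 each) and a log2 fold change of 0.34 ± 0.13, which did not pass either (adjusted p = 0.113). The log2 ratio of *Stat5a* to *Stat5b* was lower in CNV d3 by 0.32 on average, at -1.67 ± 0.19 against -1.35 ± 0.31 (SD, n = 6 each, two-sided exact permutation p = 0.0281, adjusted p = 0.0281). The p was above 0.05 without control replicate 5 (0.0563, difference of -0.20) and without CNV d3 replicates 1, 2, 3 or 5, each left out alone. Close paralogs can share stretches of sequence, and how reads from such stretches bear on this ratio was not tested.

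**Figure D3:**
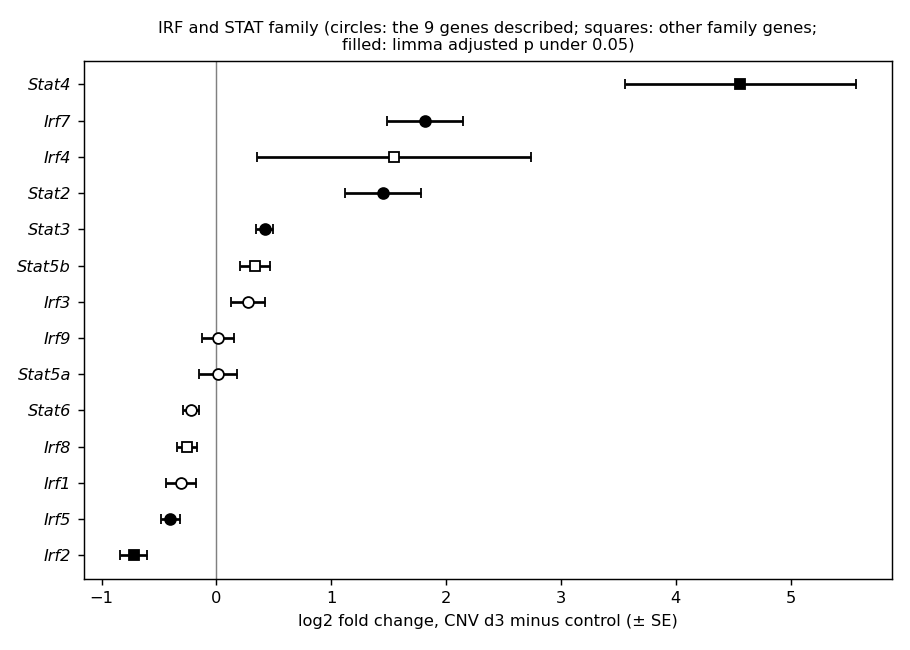
Log2 fold change of CNV d3 minus control (x axis) with its SE for 14 IRF and STAT genes; circles are the 9 genes described, squares 5 other genes, and filled symbols passed in limma (adjusted p under 0.05). Among the 9 genes *Irf7* and *Stat2* lie farthest to the right and *Irf5* farthest to the left.

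Another 5 genes of the families give the context. *Irf8*, a lineage factor of microglia, was the highest of all with 18944 ± 1379 normalized counts in control and 15908 ± 1953 in CNV d3 (SD, n = 6 each), and its log2 fold change of -0.26 ± 0.09 did not pass (limma, adjusted p = 0.0650), although the groups did not overlap. *Irf2*, which can repress the genes that IRF1 activates, fell by 0.72 on the log2 scale (SE 0.12, limma, adjusted p = 0.000776), from 2716 to 4239 normalized counts in control to 1689 to 2135 in CNV d3. *Stat4*, the factor of IL-12 signals, was near 0 in control (median 0, highest 32.4) and at 19.0 to 115 in CNV d3, with a limma adjusted p of 0.00729, while edgeR did not call it. *Irf4* was low, with a median of 132 in control and 125 in CNV d3, and did not pass. Its log2 fold change was 1.55 ± 1.19 in limma (SE, adjusted p = 0.470) but -0.06 in edgeR. Control replicates 3 and 5 had 5.63 and 0 normalized counts of it. Of these 14 genes 4 passed upwards and 2 downwards, beside 8.29% and 4.57% of all genes tested.

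Levels of different genes can be compared only per length, here as normalized counts per kilobase of the longest principal protein-coding transcript. In control *Irf5* was highest with 4984 ± 353 per kb, and its range lay apart from the next. It was followed by *Stat6* (1509 ± 91.3), *Irf9* (1446 ± 378), *Stat3* (1112 ± 63.8), *Irf1* (999 ± 199) and *Irf7* (907 ± 604), whose ranges overlapped from each to the next. *Stat2* (339 ± 195) overlapped with both *Irf7* and *Irf3* (321 ± 62.0), and *Stat5a* was lowest and apart with 119 ± 18.6 per kb (all SD, n = 6). In CNV d3 *Irf7* had moved from rank 6 to rank 2 with 2849 ± 810 per kb, overlapping with *Irf5* (3783 ± 423) above it and *Stat3* (1489 ± 115) below it. *Irf9* (1427 ± 92.7) overlapped with *Stat3* and with *Stat6* (1296 ± 46.0), which lay apart from *Stat2* (860 ± 268) below it. *Irf1* (800 ± 92.2) overlapped with *Stat2*, and *Irf3* (385 ± 50.3) and *Stat5a* (120 ± 21.5) were each apart at the bottom. With all annotated exons in place of 1 transcript, *Stat3* and *Irf1* swapped places in control, and *Stat6* came before *Stat3* and *Irf9* in CNV d3.

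**Figure D4:**
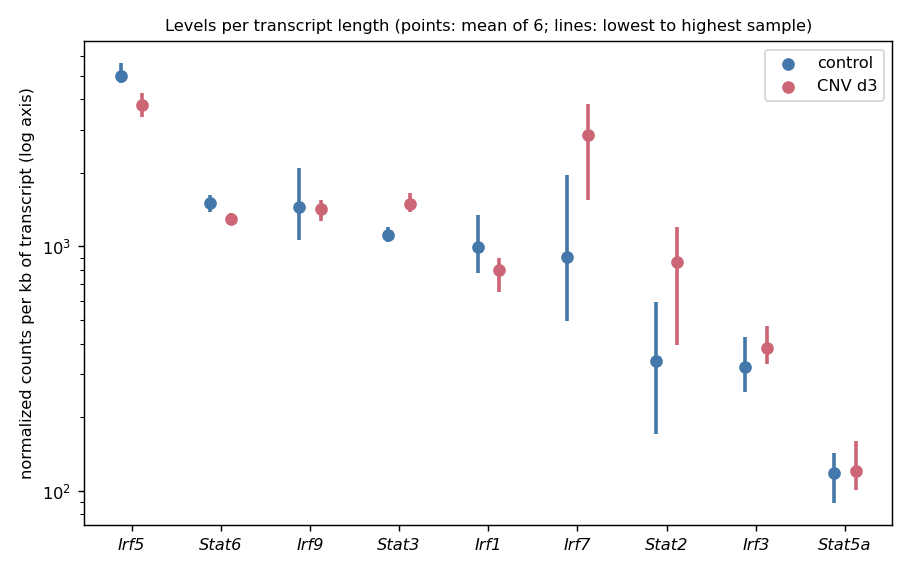
Normalized counts per kb of transcript (log axis) for the 9 genes in the order of control; points are means of 6 samples and lines run from the lowest to the highest sample. *Irf5* stays at the top in both groups and *Stat5a* at the bottom, and *Irf7* moves up to 2849 per kb in CNV d3.

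The spread among samples set the 9 genes apart from each other. On the log2 scale the SD of *Irf7* was 0.84 in control and 0.47 in CNV d3, and that of *Stat2* was 0.78 and 0.55. The median over the 9145 genes with a mean of at least 100 in each group was 0.38 and 0.23. *Stat6* varied least in CNV d3 with an SD of 0.05, and *Irf9* had 0.36 in control and 0.10 in CNV d3. The deviations of *Irf7* and *Stat2* from their group means went together over the 12 samples (Pearson r = 0.944, Spearman rho = 0.958). Without control replicates 1 and 3 the r was 0.921 over 10 samples. These samples share their size factors and the sort, and the values are a description.

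Among the same 9145 genes, the 2 whose deviations were most like those of *Irf7* were *Oasl2* (r = 0.978, rho = 0.979) and *Epsti1* (r = 0.968, rho = 0.965). For *Stat2* they were *Rsad2* (r = 0.965, rho = 0.944) and *Oasl2* (r = 0.963, rho = 0.979). These 3 genes are interferon-stimulated, and the r without control replicates 1 and 3 was 0.932 to 0.979. The nearest genes were *Cmtm8* for *Irf5* (r = 0.930), *Sema4a* and *Hnrnpl* for *Stat3* (0.876 and 0.863), and *Dus2* and *Cops7b* for *Stat6* (0.896 and 0.894). For *Irf1* they were *Orai1* and *Dusp22* (0.872 and 0.864), for *Irf3* *Poldip3* and *Insig1* (0.870 and 0.846), for *Irf9* *Gadd45gip1* and *Rnf34* (0.927 and 0.901), and for *Stat5a* *Sugp2* and *Slc38a10* (0.946 and 0.915). Each is the highest of many values over 12 samples.

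Genes before and after the 9 factors in their pathways were taken from lists of pathway genes known from the field. Counts are of genes that passed in limma over all genes, and a count without a sample comes from the same test with that sample left out. Each count stands beside the shares over all genes with a mean of at least 50 given above, 14.9% upwards and 10.7% downwards, and beside 8.29% and 4.57% over all genes tested. Of 30 ISGF3 target genes 19 rose and none fell, the latter also at an unadjusted p under 0.05 and in edgeR, DESeq2 and voom, with a median log2 fold change of 1.15. *Mx1*, an antiviral GTPase, rose from 139 ± 151 to 898 ± 267 normalized counts (log2 fold change of 3.38). *Oas3*, a sensor enzyme for double-stranded RNA, rose from 101 ± 81.3 to 396 ± 172 (2.67), and *Ifi44* from 11.9 ± 15.7 to 129 ± 55.2, with 3 control samples at 0 (SD, n = 6 each). *Bst2*, the tetherin gene, did not pass (4111 ± 2014 and 5945 ± 1275, adjusted p = 0.115). The number that rose depended on the samples. It was 9 to 12 without control replicate 2, 4, 5 or 6, 10 without CNV d3 replicate 2, 4 or 5, and 6 without CNV d3 replicate 3 or 6. Without both control replicates 1 and 3 it was 26.

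Of 20 target genes of IRF1 8 rose and none fell, nor did any at an unadjusted p under 0.05 or in edgeR, DESeq2 and voom. The median log2 fold change was 0.93, and 5 rose without control replicate 1 or 2 or without CNV d3 replicate 2, 3 or 6. *Gbp2*, a guanylate-binding protein of host defence, rose from 447 ± 202 to 1727 ± 420 normalized counts (log2 fold change of 2.03, adjusted p = 0.000218). *Gbp4* was at 0 in 4 control samples and at 70.9 to 326 in CNV d3. *Ciita*, the master regulator of MHC class II genes, was at 0 in 4 control samples and at 1.48 to 418 in CNV d3. *Psmb8* of the immunoproteasome did not pass (3287 ± 594 and 3809 ± 477, SD, n = 6 each, adjusted p = 0.293). *Irf1* itself did not pass.

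Of 18 STAT3 target genes 7 rose and 1 fell, and without both control replicates 1 and 3 it was 3 that rose in limma and 6 in edgeR. The median log2 fold change was 0.56, or 0.45 with the 4 genes that had no reads in control set to the bound that 3 reads per sample give, and 0.26 over the 12 genes with a mean of at least 50. *Socs3*, the feedback inhibitor of STAT3, rose from 937 ± 299 to 2449 ± 648 normalized counts (log2 fold change of 1.42, adjusted p = 0.000743). *Pim1*, a kinase gene shared with the STAT5 list, rose from 26.6 ± 24.2 to 131 ± 29.5 (2.75). *Cebpd* fell from 2245 ± 262 to 1284 ± 370, a log2 fold change of -0.85, and *Mcl1*, a survival gene, did not pass (8765 ± 811 and 9814 ± 736, SD, n = 6 each, adjusted p = 0.209).

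Of 8 STAT5 target genes 4 rose and 1 fell, with a median log2 fold change of 2.51, or 1.64 with the bound. Over the 5 with a mean of at least 50 the median was 0.37, and the summed level of the list had a median of 4175 normalized counts in control and 3586 in CNV d3. The one that fell was *Bcl2l1*, which encodes a survival protein, from 3231 ± 614 to 2199 ± 224 normalized counts (SD, n = 6 each, adjusted p = 0.00948). Of 14 STAT6 target genes 5 rose and none fell in limma, also at an unadjusted p under 0.05 and in edgeR and voom, while DESeq2 had 1 lower. The median was 1.68, or 1.53 with the bound. Without control replicates 1 and 3 together 3 rose. Without 1 sample 2 to 6 rose, with 2 without control replicate 4 or CNV d3 replicate 6 and 3 without control replicate 1, 2 or 6 or CNV d3 replicate 2, 3 or 5. Only 4 of these 14 had a mean of at least 50 normalized counts, with a median log2 fold change of 0.49. Among them the chemokine *Ccl22* was at 0 in 4 control samples and at 0 to 738 in CNV d3, *Il4ra* rose from 6515 ± 446 to 7708 ± 518 (log2 fold change of 0.24, adjusted p = 0.0417), and *Tgm2* narrowly missed (779 ± 264 and 1286 ± 378, adjusted p = 0.0501). *Ccl22* is also a dendritic cell product, and dendritic cell markers summed to 408 to 1215 in control and 747 to 2774 in CNV d3, with 4 of 10 risen.

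Upstream, 14 of 30 cytokine ligand genes were in the table, of which none rose in limma and 3 fell. At an unadjusted p under 0.05 it was 1 that rose, with edgeR and DESeq2 none, and with voom, without control replicate 5 or without control replicates 1 and 3 together it was 1. *Il6* fell from 227 ± 41.8 to 34.2 ± 24.1 normalized counts (log2 fold change of -3.07, adjusted p = 0.00116), with every CNV d3 value below every control value. *Il15* fell from 649 ± 106 to 307 ± 64.7, and *Ebi3*, a subunit of IL-27 and IL-35, from 882 ± 126 to 483 ± 112 (SD, n = 6 each). *Osm*, the gene of oncostatin M, did not pass (295 ± 125 and 350 ± 95.6, adjusted p = 0.547).

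Among 26 cytokine receptor genes 6 rose and 3 fell, and without control replicates 1 and 3 together 4 rose and 2 fell. The share that fell was thus near that over all genes with a mean of at least 50. Only 3 rose without CNV d3 replicate 6, and 1 fell without control replicate 4 or 6 or CNV d3 replicate 3, 5 or 6. *Il6st*, the signalling chain gp130 of the IL-6 family, fell from 21011 ± 2968 to 11165 ± 2234 normalized counts (log2 fold change of -0.92, adjusted p = 0.000340). *Csf2rb*, the common chain for GM-CSF, IL-3 and IL-5, rose from 2613 ± 238 to 4872 ± 646 (0.89, adjusted p = 5.94e-05), and *Il3ra* from 26.4 ± 10.9 to 118 ± 27.7. *Il10ra* did not pass (14834 ± 1148 and 16754 ± 2410, SD, n = 6 each). Of the Janus kinases, *Jak3* rose from 1346 ± 280 to 3349 ± 552 (1.33), *Jak2* from 880 ± 272 to 1490 ± 199 (0.82) and *Tyk2* from 1095 ± 265 to 1714 ± 168 (0.67), and *Jak1* did not pass (7303 ± 799 and 8461 ± 711, adjusted p = 0.132).

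Of 21 inhibitors of these pathways 5 rose and 2 fell, with a median log2 fold change of -0.09, and 1 fell without any of control replicates 1 to 5 or CNV d3 replicates 2, 5 and 6, each left out alone. Besides *Socs3*, *Ptpn11*, which encodes the phosphatase SHP2, rose from 528 ± 141 to 852 ± 135 normalized counts. *Irf2bp1*, a corepressor of IRF2, fell from 941 ± 144 to 622 ± 150, and *Ptpn6* for the phosphatase SHP1 did not pass (12764 ± 854 and 11984 ± 761, SD, n = 6 each, adjusted p = 0.454). Of 22 sensors, adaptors and kinases upstream of IRF proteins 3 rose and 5 fell, with a median of 0.01. The number that rose was 5 without control replicate 3 and 6 without both control replicates 1 and 3. It was 2 without control replicate 2, 4, 5 or 6 or CNV d3 replicate 3, 4, 5 or 6, each left out alone. *Ikbke*, a kinase of IRF3 and IRF7, was at 0 in 5 control samples and at 44.1 to 267 in CNV d3 (adjusted p = 0.000982). *Irak1* rose from 1374 ± 263 to 2073 ± 155, and *Sting1*, the adaptor for cytosolic DNA, fell from 18975 ± 1868 to 10955 ± 2271 (log2 fold change of -0.81, adjusted p = 0.000533). *Tlr7*, a receptor for single-stranded RNA, did not pass (8564 ± 1325 and 8323 ± 826, SD, n = 6 each, adjusted p = 0.843).

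**Figure D5:**
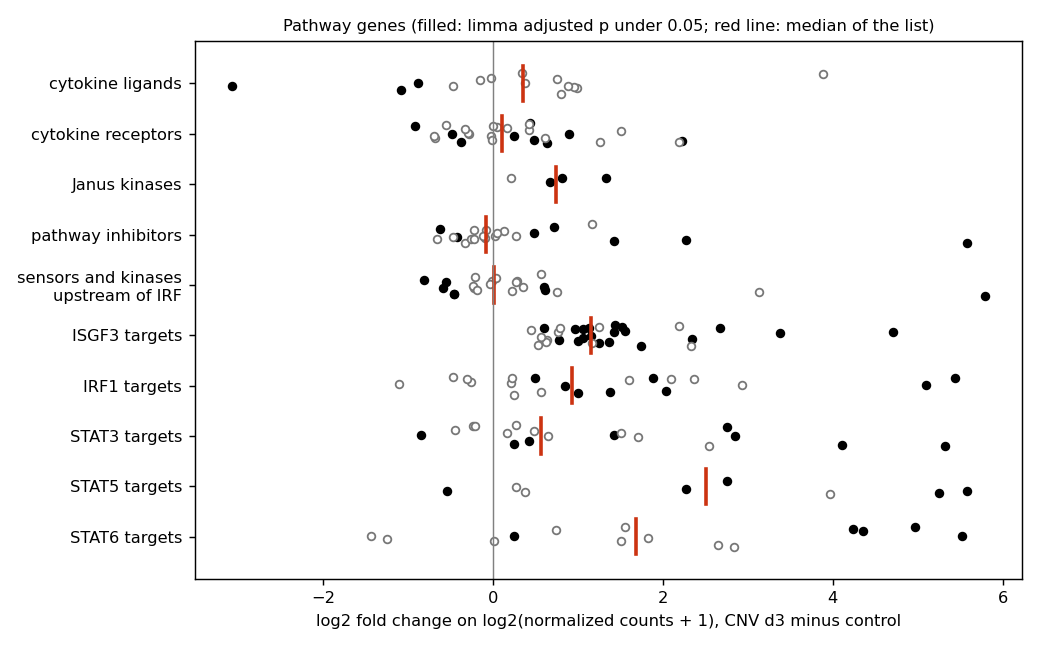
Log2 fold change of CNV d3 minus control (x axis) of each gene in 10 pathway lists; filled points passed in limma (adjusted p under 0.05), open points did not, and red lines are list medians. The 30 ISGF3 targets all lie to the right of 0 with a median of 1.15, while the inhibitors and the sensors scatter around 0.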

How the data were processed

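RNA had been taken from sorted retinal microglia of 6 control and 6 CNV d3 samples, amplified by PCR after template switching and sequenced without molecular identifiers. The authors mapped the reads with STAR 2.7.2b to GRCm38.p6 with Gencode M25, counted them with featureCounts 1.6.4 at default settings, which do not use strand, and removed genes without reads. The deposited signal is the read count divided by the size factor of DESeq2 1.22.2 for each sample. All values were whole multiples of the value of 1 read (tolerance 1e-06), so reads could be recovered. The 4 deposited columns of group means, fold changes and adjusted p-values were not used. Every control sample was listed in 2 parts, as was replicate 4 of CNV d3. The parts are merged in the table and made 1 sample each, so that this split goes with the groups except in 1 sample and cannot be told apart from them. No replicate pair agreed within counting noise.

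The main test was limma 3.58.1 with trend in R 4.3.3 on log2(value + 1), without a filter. Ratios of 2 transcripts were tested by exact permutation. Alternatives were pseudocounts of 0.5 and 5, a filter of 10 normalized counts in 6 samples, TMM scaling, median centring, no trend, edgeR 4.0.16, DESeq2 1.42.0 and voom on the recovered reads, a replicate block, thinning to the shallowest sample and leaving out each sample. Leaving out control replicates 1 and 3 together was added after the data were seen. It was done in limma, in edgeR, and in limma with CNV d3 replicate 1 left out as well. The tests were checked on simulated counts. Genes, lists and ratios were chosen with earlier results of these data known. Named were the 9 genes, 5 others of their families, from each pathway list the 3 with the largest change among those that passed with a mean of at least 50, the highest that did not pass, and the 2 genes most like each of the 9 among those with a mean of at least 100. *Ifnb1*, *Il12b*, *Fn1*, *Ly6c2*, *Ccr2*, *Plac8*, *Apoe*, *Vim*, *Dkk3*, *Slc1a3*, *Glul* and the microglia genes were named after their values were seen. Some genes that these rules pick are not reported here. Gene models were Gencode M21 (27238 of 27299 genes matched) and promoters RefSeq.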

Additional observations from a re-analysis of the deposited data

Results flagged for a closer look

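The log2 ratio of *Stat5a* to *Stat5b* in control replicate 5 was -0.72, where the other 5 control samples lay between -1.54 and -1.39. The gap to the nearest sample was 0.818 of the whole range of the group, above Dixon's 95% limit for 6 samples. Of 26 sets of 6 samples examined this was the 1 set past the limit, and chance alone passes about 1 in 20. The difference between the groups in this ratio did not keep its p under 0.05 without that sample.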

How the results depend on the processing

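Over 26 alternatives *Irf7* and *Stat3* passed in all, *Irf5* and *Stat2* in 25 each, *Stat6* in 19, and *Irf1*, *Irf3*, *Irf9* and *Stat5a* in none. The 26 include the fits without control replicates 1 and 3, which were added after the data were seen. *Irf7*, *Stat2*, *Stat3* and *Irf5* passed in each of those fits, and *Stat6* in those with limma. For *Irf7* and *Stat2* those fits leave out the highest control samples, so their passes there are no independent check. The number of the 9 genes that passed was 3 in limma without trend and 4 or 5 in the other alternatives. Of all genes, those lower in CNV d3 numbered 2170 with DESeq2, and DEG lower in CNV d3 numbered 572 with DESeq2 and 489 with voom, where limma had 1247 and 293; the cause was not tested. Replicate numbers are shared by the groups, but same-numbered samples did not deviate together (correlations from -0.053 to 0.071), and 1 of 6 control samples correlated best with its own number. The replicate block changed no call among the 9 genes. The paired differences with the block were 1.54 for *Irf7* to *Irf3* (exact sign-flip p = 0.0938), 1.44 for *Stat2* to *Irf9* (0.0625) and -0.32 for *Stat5a* to *Stat5b* (0.0625), all above 0.05. Thinning gave -0.24 for *Stat5a* to *Stat5b* (exact permutation p = 0.177). Without 1 sample that difference ran from -0.39 to -0.20. The pseudocount, the scaling and the depth changed no direction of a called result.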
